A study of Homo sapiens with 24 samples.

Results

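Peaks of chromatin immunoprecipitation followed by sequencing (ChIP-seq) were examined over EGFR, its upstream DNA and its 3′ side in the human lung adenocarcinoma line HCC827. The region was set by position alone: chromosome 7 of the build GRCh37, peak midpoints from 55000000 to 55330000, with the EGFR start near 55086700 and the gene read towards higher coordinates. It took in 346 of the 13347 peaks in 8 lists. Each list merged the 2 replicates of 1 group, which the labels call biological. Parental cells were untreated, and osimertinib-resistant cells (HCC827-OR) were grown in 1 µM osimertinib. In each state the cells were wild-type or overexpressed METTL7A fused to MYC and FLAG tags, and the antibody was either a MYC-tag antibody or an IgG isotype control. All groups derive from HCC827, a line known for an EGFR mutation and amplification. The EGFR genotype and copy number of each group are not given in the labels, so they may differ between groups. The promoter of the transgene, and whether the tagged or resistant cells are 1 clone or a pool, were not stated in the labels. The 16 immunoprecipitated samples stand behind the 8 lists, and the 8 input samples were not analysed here.

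EGFR encodes a receptor tyrosine kinase of the ERBB family, which binds ligands such as EGF and amphiregulin and signals through RAS and MAP kinases, PI3 kinase and STAT proteins. In lung adenocarcinoma, activating mutations within its kinase domain make tumours depend on the receptor, and osimertinib binds the mutant kinase covalently. The gene is known for a GC-rich promoter without a TATA box and for a very long first intron with enhancer activity. METTL7A belongs to the methyltransferase-like proteins and sits at membranes and lipid droplets. The MYC tag is a stretch of the MYC transcription factor, so the antibody has a possible target in wild-type cells as well. IgG has no specific target, and its peaks serve as the background beside each MYC-tag result.

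The sequence that ends at the EGFR start is shown because the presence or absence of peaks there separated the genotypes. It comes from RefSeq on GRCh38.p14 and covers the 250 bases before the start, chr7:55018767-55019016 on the plus strand. Its coordinates belong to another build than the peaks and were not set against them. Capitals mark 2 motifs, the GC box CCGCCC that SP1-family factors recognise and the repeat unit TCCTCC.
EGFR promoter: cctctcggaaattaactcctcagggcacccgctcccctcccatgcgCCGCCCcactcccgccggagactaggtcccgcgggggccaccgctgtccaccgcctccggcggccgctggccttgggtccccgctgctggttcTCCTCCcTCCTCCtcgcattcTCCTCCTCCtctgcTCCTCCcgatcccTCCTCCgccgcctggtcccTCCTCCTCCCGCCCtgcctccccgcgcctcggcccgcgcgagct
On both strands the stretch held 2 CCGCCC and 8 TCCTCC, counting overlapping matches, and 1 of the 2 GC boxes overlaps a TCCTCC. Among 35116 RefSeq promoters cut to the same length, 42.6% held CCGCCC and 31.8% held TCCTCC. The E-box CACGTG, which MYC with MAX binds, was not found in these letters, and 6.34% of promoters held it. TATAAA was not found either, against 10.7% of promoters. The GC content was 73.6%, against a median of 58.0% over all promoters, and there were 25 CpG dinucleotides, against a median of 11. A match in these letters is a description and not a bound site.

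Peak height below is the authors' −log10 p-value of the peak caller, given for each of the 2 replicates, and a single height is the lower of the 2. The files do not say which replicate is which, so the values are called first and second. A peak was called reproducible at a global irreproducible discovery rate (IDR) of 0.05 or less, a rate that is low for peaks ranked high in both replicates and that adapts to each list. The lists held 70 to 3165 peaks. Their read depth is unknown from the files, and heights are not on 1 scale across lists. HCC827 carries extra copies of EGFR, and DNA in more copies gives more reads in any library, IgG included; the part of copy number in what follows was not tested.

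At the EGFR start, within 1 kb of 55086700, each of the 4 wild-type lists held 1 peak and none of the 4 METTL7A lists held any. The peaks merge into 1 position at chr7:55085275-55088472. In parental wild-type cells the IgG peak was 11.2 and 24.2 high in the first and second replicate, and the MYC-tag peak was 16.9 and 7.26. In resistant wild-type cells the IgG peak was 23.2 and 58.6 high and the MYC-tag peak 14 and 6.40. The pair of IgG peaks was reproducible and stood at rank 12 and rank 6 of their lists by height. The MYC-tag peaks were not reproducible, with a global IDR of 0.088 and 0.114, and stood at rank 60 and rank 190. In wild-type cells the start thus stood higher in the IgG background than among the MYC-tag peaks, by rank within the list.

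The stretch without METTL7A peaks around the start ran 19.3 kb, chr7:55073561-55092831, and held 9 wild-type peaks, 3 of them from IgG lists. On its upstream side the nearest parental METTL7A MYC-tag peak was chr7:55072954-55073560, 19.4 high. The resistant METTL7A MYC-tag list had a peak at nearly the same place, chr7:55072926-55073463, 11.3 high. On the downstream side the nearest were chr7:55092832-55093557 in the parental list, 6.66 high, and chr7:55101064-55101503 in the resistant list, 11 high. A longer METTL7A-free stretch of 23 kb lay at chr7:55001657-55024671 and held 2 wild-type peaks. The absence at the start was noticed after the values were seen and so carries no test, and it rests for IgG on lists of 70 and 96 peaks.

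Besides the start, 2 more positions carried peaks in both wild-type MYC-tag lists and in no METTL7A list, and both lie inside the same 19.3 kb. The one at chr7:55082189-55083291 was 4.36 and 5.57 high in parental and 7.90 and 7.26 in resistant cells. The other, at chr7:55089537-55090075, was 5.88 and 8.68 high in parental and 17.2 and 4.77 in resistant cells. All 3 such positions of the region therefore flank or cover the EGFR start. They are 3 of the 40 positions that both wild-type MYC-tag lists shared here, and the same share over the whole lists was not computed. Overlap between genotypes was rare over the whole lists. There 6.61% (parental) and 8.21% (resistant) of METTL7A MYC-tag peaks met a wild-type MYC-tag peak. These shares count METTL7A peaks within each state, so they are not the background for the 3 of 40. Whether 3 is few or many for such lists is therefore not known here.

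**Figure D1:**
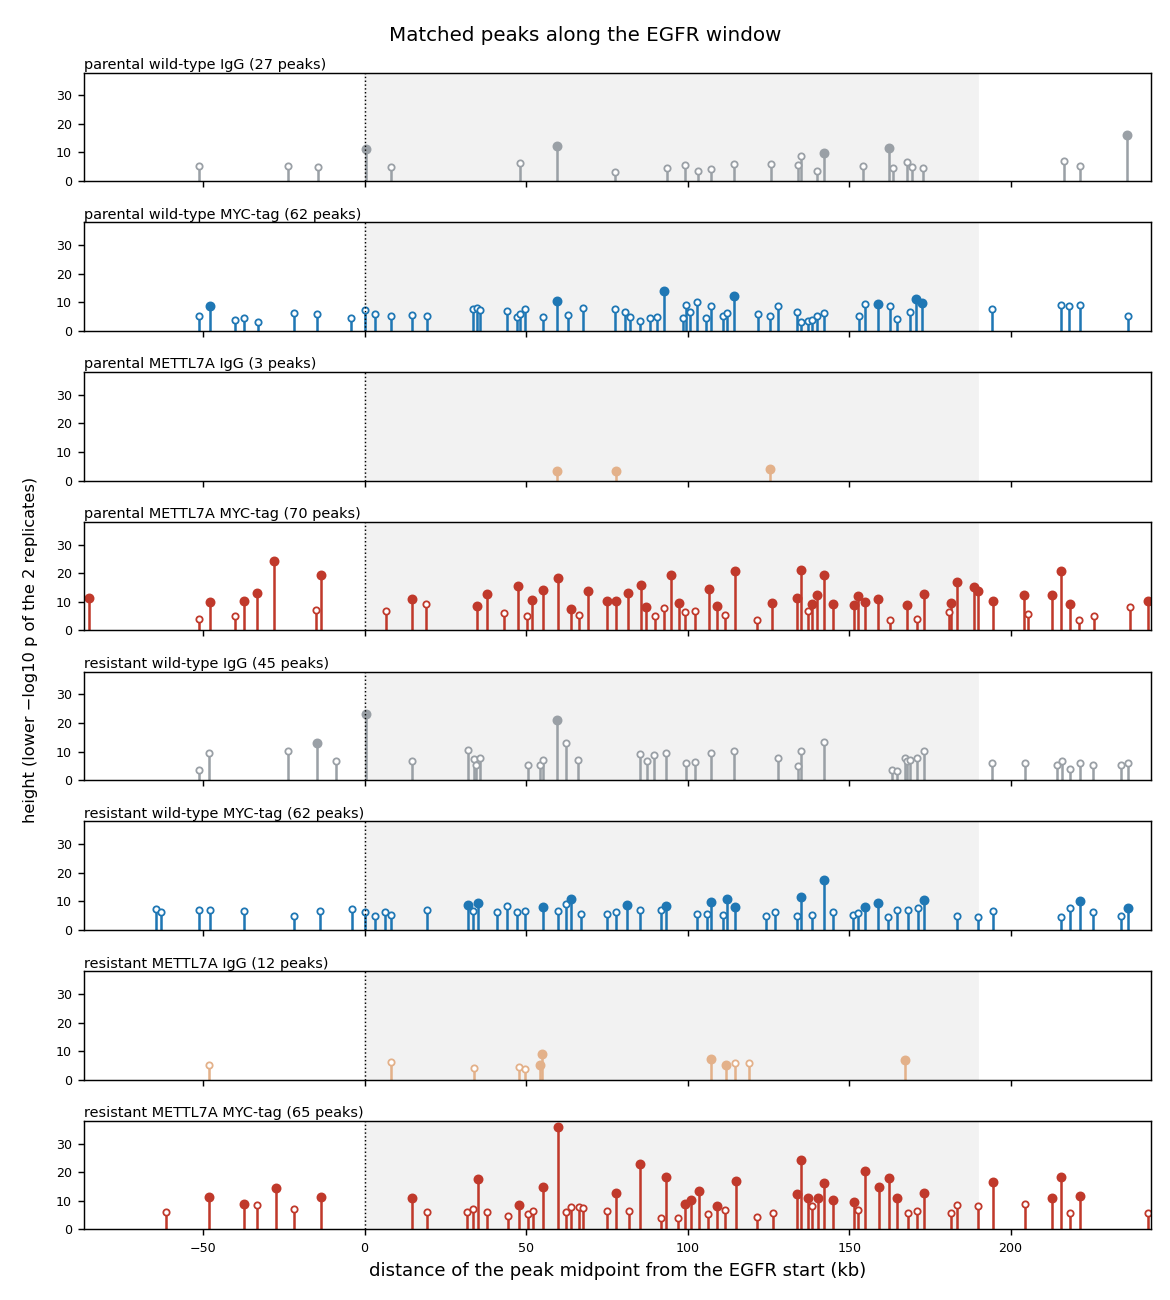
Peaks of the 8 lists along the EGFR region. The horizontal axis is the distance of the peak midpoint from the EGFR start in kb, each panel is 1 list, and each stem gives the height, the lower −log10 p of the 2 replicates, with filled circles for reproducible peaks and grey shading from the start to 190 kb past it. The 4 wild-type panels hold a peak at the start, the 4 METTL7A panels hold none there, and the METTL7A IgG panels hold 3 and 12 peaks in all.

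By distance from the start, most peaks lay within the gene. Over all lists 41 peaks were upstream, 4 within 1 kb of the start, 158 in the part from 1 to 120 kb past it (called the first intron part here), 102 from 120 to 190 kb (the rest of the gene body) and 41 beyond (the 3′ flank). Because no GRCh37 annotation was used here, these zones are round distances and not exon or intron limits. Per 10 kb this came to 13.3 peaks in the first intron part and 14.6 in the rest of the gene body, against 4.78 upstream and 7.69 in the 3′ flank. The start zone, with 4 peaks in 2 kb, came to 20 per 10 kb. The METTL7A MYC-tag lists held 29 peaks in parental and 30 in resistant cells in the first intron part, and the wild-type MYC-tag lists 31 and 28. Upstream they held 9 and 7 with METTL7A and 8 and 8 in wild-type cells.

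In the gene body beyond 120 kb, the part that codes for most of the receptor, the MYC-tag lists held 22 (parental METTL7A), 21 (resistant METTL7A), 17 (parental wild-type) and 18 (resistant wild-type) peaks. Both wild-type IgG lists held 11, and both METTL7A IgG lists held 1. Over all lists, 12 of 41 peaks upstream, 2 of 4 at the start and 52 of 158 in the first intron part were reproducible. So were 41 of 102 in the rest of the gene body and 13 of 41 in the 3′ flank. These counts follow the number of peaks per zone. The METTL7A MYC-tag lists gave 48 (parental) and 33 (resistant) of the reproducible peaks, and the shares over each whole list are given below.

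**Figure D2:**
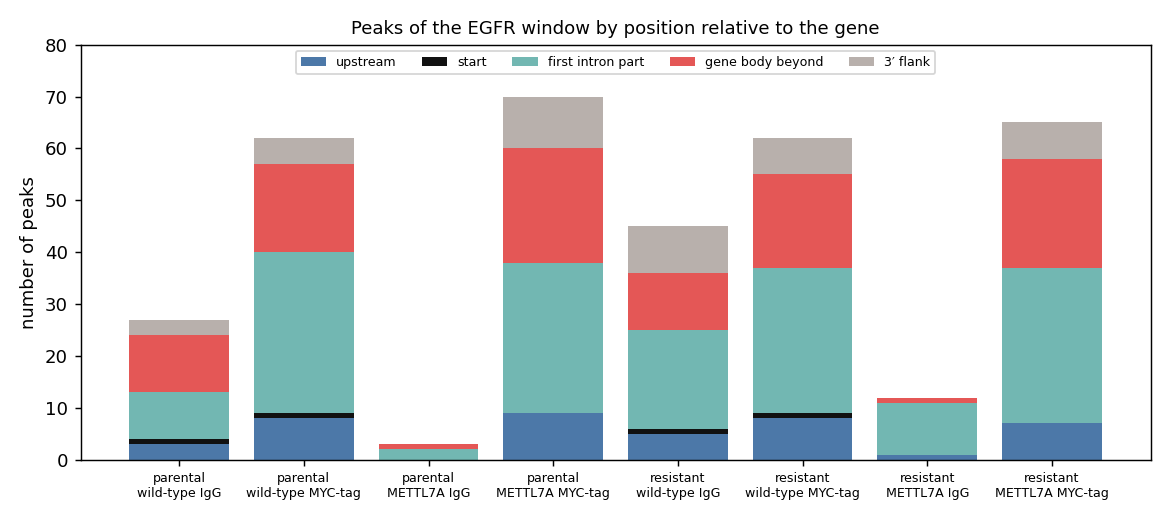
Number of peaks in each distance zone of the EGFR region, stacked in 1 bar per list. The first intron part (1 to 120 kb past the start) holds the most peaks in every list except parental wild-type IgG, where it has 9 against 11 in the rest of the gene body. Its count runs from 2 in the parental METTL7A IgG list to 31 in the parental wild-type MYC-tag list.

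Overlapping peaks of all lists merged into 83 positions, 281 to 7551 bp wide. Of these, 14 were found in 1 list, 16 in 2, 14 in 3, 9 in 4, 10 in 5, 15 in 6 and 5 in 7, and none in all 8. A MYC-tag list held a peak at 79 of the 83 positions and an IgG list at 44. The 30 positions found in 5 or more lists all include IgG by construction, since there are 4 MYC-tag lists. They comprised 3 upstream, 15 in the first intron part, 7 in the rest of the gene body and 5 in the 3′ flank. The highest peak came from a METTL7A MYC-tag list at 24 of the 30, and that height ranged from 7.12 to 35.9 with a median of 14.5.

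The highest of all was a first intron position 59.7 kb past the start, chr7:55145167-55147646, found in 7 lists. With the MYC-tag antibody in METTL7A cells, its first and second replicate heights were 18.4 and 34.7 in parental and 35.9 and 39.4 in resistant cells. With the same antibody in wild-type cells they were 10.8 and 10.4 in parental and 23.6 and 6.46 in resistant cells. The IgG peaks were 12.2 and 15 (parental wild-type), 21.1 and 42.0 (resistant wild-type) and 13.5 and 3.31 (parental METTL7A), and resistant METTL7A IgG had no matched peak. The resistant METTL7A MYC-tag peak was rank 1 of its 3165 peaks. The resistant wild-type IgG peak reached 42.0 in its second replicate, so the position was high in the IgG background as well.

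Another first intron position, 115 kb past the start at chr7:55200271-55202789, was also found in 7 lists. With the MYC-tag antibody in METTL7A cells it was 20.8 and 48.5 high in parental and 16.9 and 29.3 in resistant cells. In wild-type cells it was 12 and 15.3 in parental and 20.2 and 8.08 in resistant cells. The IgG peaks were 5.98 and 12.5 (parental wild-type), 10.2 and 11.4 (resistant wild-type) and 6.07 and 5.76 (resistant METTL7A). By the lower replicate, the wild-type MYC-tag peak was above the IgG peak in parental cells and below it in resistant cells.

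The other 3 positions of 7 lists were lower. At chr7:55192175-55194682, 107 kb past the start, heights as the lower replicate ran from 4.16 (parental wild-type IgG) to 14.3 (parental METTL7A MYC-tag). At chr7:55210729-55215690, 127 kb past the start, they ran from 4.17 (parental METTL7A IgG) to 9.73 (parental METTL7A MYC-tag). At chr7:55252917-55260467, 170 kb past the start, 21 peaks merged into the widest position of the region, 7551 bp, and the highest per list ran from 6.72 (parental wild-type IgG) to 12.8 (parental METTL7A MYC-tag). The parental METTL7A MYC-tag list was the highest at each of the 3.

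The highest peak of a list fell at a different place in each. In parental cells it was chr7:55321989-55323239 in the 3′ flank for wild-type IgG (16.2 and 62.6), chr7:55177998-55180736 in the first intron part for wild-type MYC-tag (14.1 and 14.2) and chr7:55211899-55212520 in the gene body for METTL7A IgG (8.69 and 4.17). For parental METTL7A MYC-tag it was the upstream peak chr7:55057950-55059451 (24.2 in each replicate). In resistant cells it was the EGFR start for wild-type IgG and chr7:55228397-55229354 in the gene body for wild-type MYC-tag (25.4 and 17.4). For resistant METTL7A it was chr7:55141509-55142061 in the first intron part with IgG (8.97 and 10.2) and the position 59.7 kb past the start with the MYC tag. In their own lists these peaks stood at rank 3, 3, 26 and 5 in parental and 6, 8, 4 and 1 in resistant cells, in the order IgG then MYC-tag of wild-type cells and IgG then MYC-tag of METTL7A cells.

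Peaks of both METTL7A MYC-tag lists and of no other list marked 8 positions. That is 15.4% of the 52 positions those lists shared over EGFR, against 29.5% of 61 in the flanks (the rest of 54 to 56 Mb of chromosome 7) and 52.3% of 436 over the whole lists, so such positions were a smaller share here than in the lists as a whole, with no test. The highest lay upstream of the gene, −28.0 kb from the start at chr7:55057950-55059513, and was 24.2 in both replicates in parental and 16.0 and 14.5 in resistant cells. Among the 5 highest was also a position in the 3′ flank, chr7:55299047-55300107, at 12.6 and 12.3 in parental and 13.0 and 11.2 in resistant cells. At both positions the 2 replicate heights lay close together within each state.

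In the first intron part, chr7:55124401-55124896 was 12.7 and 26.7 high in parental and 5.95 and 6.01 in resistant cells. A second one there, chr7:55138216-55138999, was 10.6 and 13.0 in parental and 6.56 and 6.66 in resistant cells. At the far end, chr7:55328750-55329515 was 13.2 and 10.3 in parental and 5.87 and 8.37 in resistant cells. All 8 were reproducible in the parental list and higher there than in the resistant list, and the lower replicate ran from 8.65 to 24.2 in parental cells. In the resistant list it ran from 4.11 to 14.5, and 3 of the 8 were reproducible. Widening every peak by 500 bp gave 4 such positions in place of 8, requiring a 50% reciprocal overlap gave 10, and the METTL7A IgG lists that could have held a background peak here held 3 and 12 peaks in the region. The part of read depth in this pattern was not tested.

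**Figure D3:**
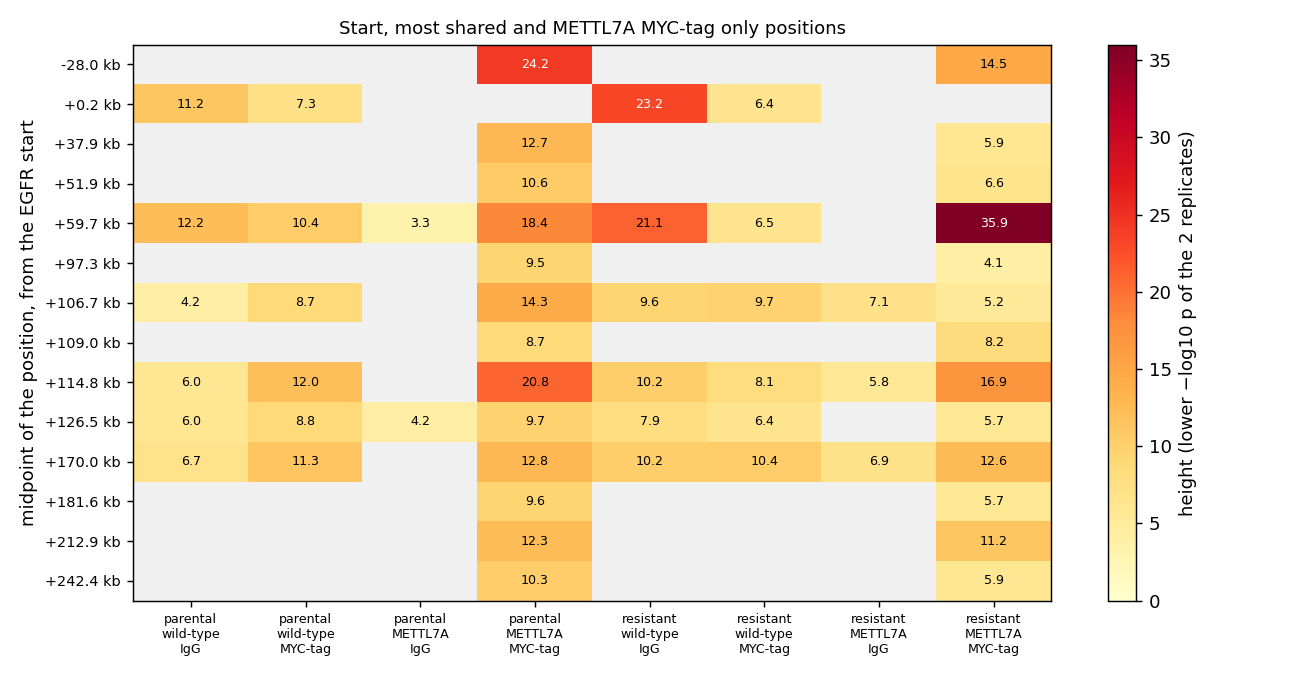
Heights by list at the EGFR start, at the positions found in 7 lists and at the 8 positions of both METTL7A MYC-tag lists only. Rows are positions by distance from the EGFR start in kb, columns are the 8 lists, the colour gives the lower −log10 p of the 2 replicates, and blank cells have no matched peak. The start row is filled for the 4 wild-type lists, and the row at −28.0 kb for the 2 METTL7A MYC-tag lists.

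Between the states, 52 positions were shared by both METTL7A MYC-tag lists, and 28 of them were higher in parental cells. Spearman's rho of the heights over these positions was 0.349, as a description of neighbouring positions that are not independent. The wild-type MYC-tag lists shared 40 positions, 21 of them higher in resistant cells, with a rho of 0.108. The wild-type IgG lists shared 19, and 14 were higher in resistant cells. METTL7A and wild-type MYC-tag lists shared 42 positions in parental cells, 33 of them higher with METTL7A, and 40 in resistant cells, 29 of them higher with METTL7A. These are raw heights from lists of unknown depth and carry no test, and the same counts over the whole lists were not made. The counts can therefore not be called particular to EGFR. Outside the region the METTL7A MYC-tag lists were higher as well, over all peaks and not only shared positions. Median heights there were 4.74 against 4.36 in wild-type parental cells and 4.49 against 4.14 in wild-type resistant cells. For wild-type IgG they were 3.70 in parental and 4.44 in resistant cells.

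The share of peaks that were reproducible was read against each whole list. In parental cells 5 of 27 wild-type IgG peaks over EGFR were reproducible (18.5%, against 2.15% of the whole list), 7 of 62 wild-type MYC-tag peaks (11.3%, against 2.59%), 3 of 3 METTL7A IgG peaks (against 75.7%) and 48 of 70 METTL7A MYC-tag peaks (68.6%, against 6.38%). In resistant cells it was 3 of 45 (6.67%, against 0.791%), 16 of 62 (25.8%, against 2.28%), 5 of 12 (41.7%, against 13.5%) and 33 of 65 (50.8%, against 3.29%) in the same order. Peaks over EGFR were reproducible more often than the list as a whole in all 8 lists, though in parental METTL7A IgG this rests on 3 peaks. Global IDR is low for peaks ranked high in both replicates, so this result is not separate from their height. The share in the flanks was not computed. For parental METTL7A IgG the exact 95% binomial interval was 29.2 to 100%, which takes in the 75.7% of its whole list. It was 56.4 to 79.1% for parental and 38.1 to 63.4% for resistant METTL7A MYC-tag peaks. Such intervals take in counting error alone, and peaks next to each other are not independent.

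Replicates of the same list were often unequal over EGFR. The first replicate was the higher one in 3 of 27, 24 of 62, 3 of 3 and 10 of 70 peaks in parental cells and in 18 of 45, 52 of 62, 7 of 12 and 29 of 65 in resistant cells, in the order IgG then MYC-tag of wild-type cells and IgG then MYC-tag of METTL7A cells. Median heights of the first and second replicate were 10.4 and 20.2 for parental METTL7A MYC-tag and 15.2 and 7.09 for resistant wild-type MYC-tag. They lay close together, at 11.3 and 10.7, for resistant METTL7A MYC-tag. Spearman's rho between replicates over the peaks of the region ran from −0.167 (resistant wild-type MYC-tag) to 0.572 (parental wild-type IgG), over 62 and 27 peaks.

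**Figure D4:**
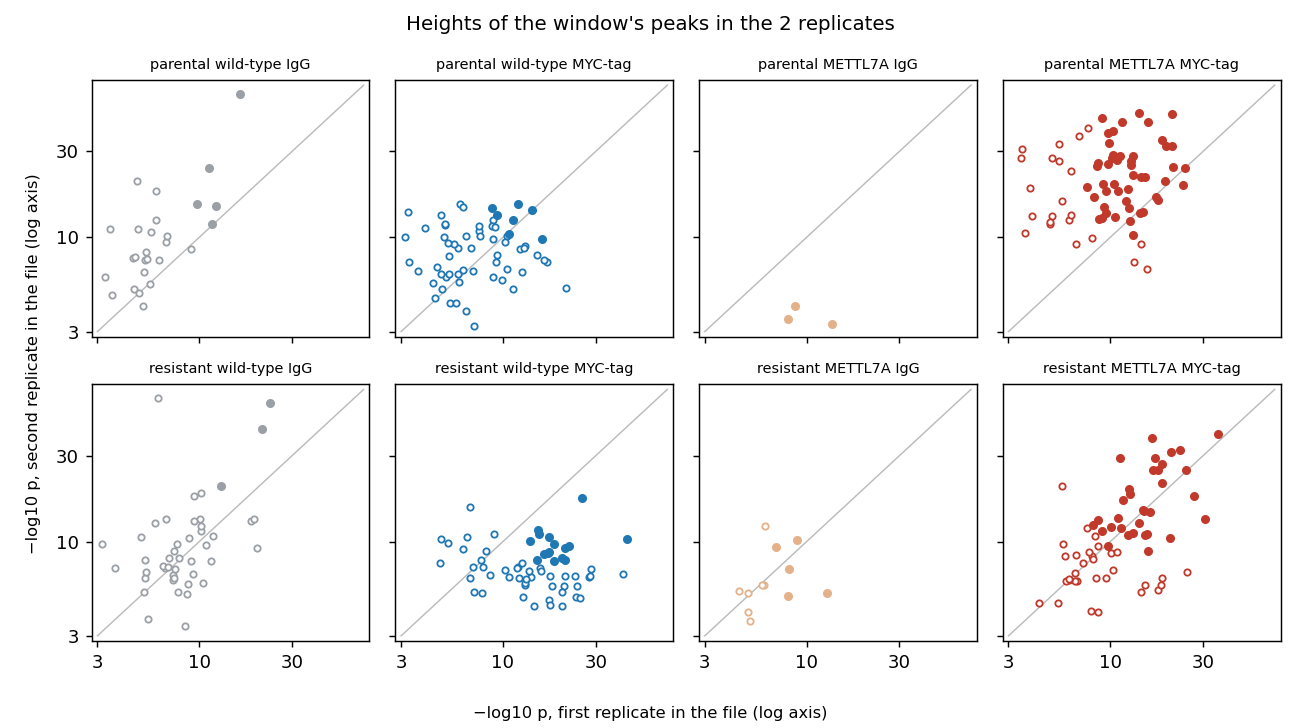
Height of each peak over EGFR in the first against the second replicate, 1 panel per list, both axes as −log10 p on a log scale, 1 point per peak. In the parental METTL7A MYC-tag panel 10 of 70 peaks are higher in the first replicate, in the resistant wild-type MYC-tag panel 52 of 62.

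Outside the METTL7A IgG list, most parental peaks over EGFR were met again in resistant cells of the same genotype and antibody, counted at an overlap of 1 bp. This held for 19 of 27 wild-type IgG peaks (70.4%, against 15% of the whole list) and 50 of 62 wild-type MYC-tag peaks (80.6%, against 18.7%). For METTL7A it held for none of 3 IgG peaks (against 2.86%) and for 55 of 70 MYC-tag peaks (78.6%, against 19.9%). In the flanks the shares were 78.8% and 69.7% for wild-type IgG and MYC-tag and 65.3% for METTL7A MYC-tag. In these 3 lists recurrence was above the whole-list share over EGFR and in its flanks alike, with no test. Peaks of the resistant lists covered much of the region: 10.72% of its length for wild-type IgG, 25.05% for wild-type MYC-tag and 23.14% for METTL7A MYC-tag. Where peaks are this crowded, some meet by position alone at an overlap of 1 bp. The part of this crowding in the shares was not tested, so they do not show recurrence of particular sites.

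MYC-tag peaks were also set against the IgG peaks of the same cells, with no test between genotypes. Of wild-type MYC-tag peaks over EGFR, 25 of 62 in parental (40.3%, against 15.2% of the list) and 32 of 62 in resistant cells (51.6%, against 12.8%) met an IgG peak. Of METTL7A MYC-tag peaks, 3 of 70 in parental (4.29%, against 0.396%) and 8 of 65 in resistant cells (12.3%, against 0.695%) did. The METTL7A IgG lists had 3 and 12 peaks over EGFR to be met and the wild-type IgG lists 27 and 45, so list length moves with this count and its part was not tested. In the flanks the shares were 40.9% and 51.9% in wild-type and 1.05% and 7.95% in METTL7A cells, parental before resistant, so wild-type overlap with IgG was nearly the same there as over EGFR. METTL7A MYC-tag peaks met a wild-type MYC-tag peak in 45 of 70 cases in parental (64.3%, against 6.61%) and 46 of 65 in resistant cells (70.8%, against 8.21%), with 36.8% and 53.4% in the flanks. The wild-type MYC-tag peaks covered 21.70% of the region in parental and 25.05% in resistant cells. The part of this crowding in the shares was not tested either.

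As a share of its list, the region took 1.87% (27 of 1444, exact 95% interval 1.24 to 2.71) in parental wild-type IgG and 6.17% (62 of 1005, 4.76 to 7.84) in parental wild-type MYC-tag. It took 4.29% (3 of 70, 0.893 to 12) and 3.08% (70 of 2271, 2.41 to 3.88) in parental METTL7A IgG and MYC-tag. In resistant cells the shares were 1.78% (45 of 2529), 2.24% (62 of 2767), 12.5% (12 of 96) and 2.05% (65 of 3165) in the same order. In both states the MYC-tag share was above the IgG share in wild-type cells and below it in METTL7A cells.

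Over the 8 lists, none of the 6 comparisons fixed in the design passed. The mean share was 3.39% ± 1.91 (SD, n = 4 lists) with the MYC tag and 5.11% ± 5.06 with IgG (exact two-sided permutation test over lists, p = 0.714, adjusted p = 0.857 over 6 tests). By genotype it was 5.48% ± 4.77 with METTL7A and 3.01% ± 2.11 in wild-type lists (exact permutation p = 0.486, adjusted p = 0.857). By state it was 4.64% ± 5.24 in resistant and 3.85% ± 1.83 in parental lists (exact permutation p = 0.943, adjusted p = 0.943). With 4 lists against 4 the smallest p of this exact permutation test is 0.0286. Reached by a lone comparison, it becomes an adjusted p of 0.171 over 6 tests, so a single comparison could not pass. That none passed is therefore not evidence of no difference. Without the resistant METTL7A IgG list, of 96 peaks, the difference turned from −1.72 to 0.742 percentage points by antibody (MYC-tag minus IgG) and from 0.792 to −1.83 by state (resistant minus parental), and it fell from 2.47 to 0.126 by genotype (METTL7A minus wild-type).

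Peaks over EGFR stood high within every list except the parental METTL7A IgG list. The median percentile of height was 90.7, 88.8, 51.4 and 95.3 in parental and 88.4, 94.0, 84.9 and 96.5 in resistant cells, in the order IgG then MYC-tag of wild-type cells and IgG then MYC-tag of METTL7A cells. It averaged 93.7 ± 3.42 (SD, n = 4 lists) with the MYC tag and 78.8 ± 18.4 with IgG, a difference that did not pass (exact permutation p = 0.0571, adjusted p = 0.343). By genotype it was 82.0 ± 21.1 with METTL7A and 90.5 ± 2.59 in wild-type lists (exact permutation p = 0.714, adjusted p = 0.857), and by state 91.0 ± 5.28 in resistant and 81.5 ± 20.3 in parental lists (exact permutation p = 0.600, adjusted p = 0.857). The parental METTL7A IgG list, with 3 peaks in the region, is the lowest in each. Without it the difference by genotype (METTL7A minus wild-type) turned from −8.42 to 1.78 and that by state (resistant minus parental) from 9.42 to −0.615, and the difference by antibody (MYC-tag minus IgG) shrank from 14.8 to 5.68.

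**Figure D5:**
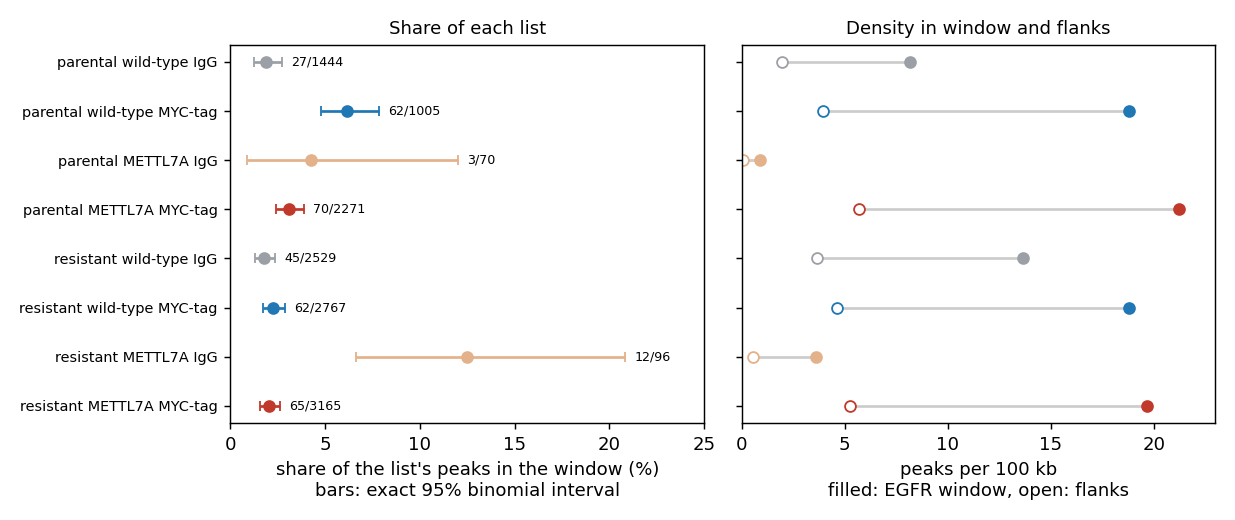
Peaks over EGFR as a share of each list in percent with exact 95% binomial intervals, and peak density over EGFR and in its flanks per 100 kb, by list. The resistant METTL7A IgG share of 12.5% has the widest interval, and density is higher over EGFR than in the flanks in each of the 8 lists.

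Against its flanks the region was denser in peaks, while the difference in rank turned on 1 list. Per 100 kb the parental lists held 8.18, 18.8, 0.909 and 21.2 peaks over EGFR and 1.98, 3.95, 0.0599 and 5.69 in the flanks. The resistant lists held 13.6, 18.8, 3.64 and 19.7 over EGFR and 3.65, 4.61, 0.539 and 5.27 in the flanks. The density was higher over EGFR in 8 of 8 lists, by 9.89 peaks per 100 kb on average (SD 5.81), with p = 0.00781 in an exact two-sided sign-flip permutation test, the smallest it can give, and adjusted p = 0.0156 over 2 tests. The median percentile differed by −0.380 on average, from −38.6 to 20.3, and was higher over EGFR in 6 of 8 lists (exact permutation p = 0.992, adjusted p = 0.992). The −38.6 comes from the parental METTL7A IgG list, with 3 peaks over EGFR and 1 in the flanks. Without that list the percentile was 5.08 higher over EGFR on average, in 6 of 7 lists, and the difference passed (exact permutation p = 0.0312, adjusted p = 0.0312). Both tests and this omission were added after the data were seen. They take each list as a separate unit. The IgG and MYC-tag lists of a group come from the same cells, and all lists come from 1 line. The lists are thus not independent, and these p-values can overstate the evidence.

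At the limits of the region, the last peak inside was the higher one in some lists and the next peak outside in others. On the high side the parental wild-type IgG list had 16.2 inside and 3.48 outside, and the resistant METTL7A MYC-tag list 5.87 inside and 11 outside. On the low side the parental METTL7A MYC-tag list had 11.2 inside and 6.24 outside, and the resistant one 6.08 and 13.9. In the wild-type lists and the METTL7A MYC-tag lists the next peak outside lay 5.53 to 25.9 kb beyond the low limit and 8.31 to 11.5 kb beyond the high limit. In the METTL7A IgG lists it lay 817 kb (parental) and 26.1 kb (resistant) beyond the low limit, and on the high side 162 kb beyond in resistant cells, while the parental list had none nearer than 63660 kb. The lists hold no expression values, so the lung adenocarcinoma label of the cells could not be set against marker genes.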

How the data were processed

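ChIP-seq peaks of 16 immunoprecipitated samples in 8 groups were used, as 1 list per group. Per the submitters' processing notes, the build was GRCh37 and the tools were MACS2 2.2.7.1, bedtools 2.30, Bowtie2 2.4.2, deepTools 3.5.1, FastQC, SAMtools 1.16 and Trimmomatic, given without their roles. Which control entered peak calling, and which IDR version, is not given in the sources used here. Each deposited list has 20 columns in the IDR layout. The authors deposited −log10 p-values of the peak caller for each replicate and the global IDR as −log10, with no read totals, so the depth and the precision it gives are unknown. The lowest height in any list was 3.00.

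From these, with Python 3.11.15, pandas 2.3.3, NumPy 2.4.6 and SciPy 1.17.1, midpoints selected the region, peaks overlapping by 1 bp were merged into positions, and shares received Clopper-Pearson 95% intervals. Over 8 lists, 6 exact permutation tests of 4 against 4 were adjusted by Benjamini-Hochberg, and 2 exact sign-flip tests against the flanks within lists likewise. The scripts were checked on simulated data. A list merges its replicates, so a p-value compares lists and not cultures. All tests take the lists as separate units, although IgG and MYC-tag lists of the same cells are not independent. Positions named in the text were those within 1 kb of the start, those in 5 or more lists (given in full for 7 lists and as counts otherwise), the highest of each list, and the 5 highest in both METTL7A MYC-tag lists only or in both wild-type MYC-tag lists and no METTL7A list. The region, these rules and the tests were chosen with earlier results of these data known. Alternatives used reproducible peaks, heights of 5 or more, the gene body, merged or widened peaks, reciprocal overlap, 1 replicate's heights and leaving out each list. Input samples were not analysed here, nor were peaks over other ERBB genes and ligands, which need a GRCh37 annotation.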

Additional observations from a re-analysis of the deposited data

Results flagged for a closer look

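In groups of 4 lists, a value stood apart from the other 3 (Dixon's criterion) in 4 of 12 groups examined. Chance alone flags about 1 in 20 of groups that are independent. These 12 groups overlap, since the same 8 lists were grouped by antibody, by genotype and by state. The count of 4 can therefore not be set against that rate. The share of peaks over EGFR in the parental wild-type MYC-tag list, 6.17%, stood apart among the wild-type lists. The share in the resistant METTL7A IgG list, 12.5%, stood apart among the resistant lists. The median percentile of height in the parental METTL7A IgG list, 51.4 over 3 peaks, stood apart among the IgG lists and among the parental lists. By the first replicate alone that percentile was 95.7, and by the second alone 25.7.

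Some differences had opposite signs between genotypes or antibodies, in parental and resistant cells alike. The MYC-tag minus IgG share was 4.30 and 0.461 percentage points in wild-type cells (parental, then resistant) and −1.20 and −10.4 in METTL7A cells. The METTL7A minus wild-type share was 2.42 and 10.7 percentage points with IgG and −3.09 and −0.187 with the MYC tag. For the median percentile, METTL7A minus wild-type was −39.2 and −3.48 with IgG and 6.54 and 2.47 with the MYC tag. These differences between effects were not tested, and each rests in part on the METTL7A IgG lists, of 70 and 96 peaks.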

How the results depend on the processing

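None of the 6 comparisons of shares and ranks between lists passed at any setting. A comparison that reached the smallest possible p alone could not pass at any of them, because of the adjustment over 6 tests. With reproducible peaks only, the share by antibody turned to 10.5 percentage points, the rank by antibody to −5.89 and by state to −1.81. With heights of 5 or more in both replicates, the rank by genotype turned to 1.89 and by state to −7.06, over 7 lists, since the parental METTL7A IgG list then had 0 peaks here. By the first replicate alone they were 3.5 and −0.797. Leaving out each list gave −2.83 to 0.742 (share by antibody), −1.83 to 1.75 (share by state), 0.126 to 3.61 (share by genotype), 5.68 to 18.8 (rank by antibody), −13.3 to 1.78 (rank by genotype) and −0.615 to 14 (rank by state). For EGFR against its flanks, an omission added after the data were seen, it gave 9.08 to 11.2 peaks per 100 kb, past the threshold each time (adjusted exact permutation p = 0.0312), and −3.34 to 5.08 in percentile, which turned and passed without the parental METTL7A IgG list. The cause of these turns was not tested beyond the list named in the report.

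Counts also moved. Reproducible peaks numbered 5 and 7 (parental wild-type IgG and MYC-tag), 3, 16, 5 and 33 (resistant wild-type IgG, MYC-tag, METTL7A IgG and MYC-tag). Heights of 5 or more left 17 in parental wild-type IgG and 7 in resistant METTL7A IgG. Merging peaks within 1 kb left 46 in parental METTL7A MYC-tag. Positions of both METTL7A MYC-tag lists only were 4 after widening, 3 with reproducible peaks and 10 at 50% reciprocal overlap. Of reproducible parental peaks, 4 of 5 (wild-type IgG) and 7 of 7 (wild-type MYC-tag) recurred, so the counts fell with the number of peaks kept. IgG overlaps at 50% reciprocal overlap were 16 and 1 (parental wild-type and METTL7A) and 19 and 3 (resistant), and of reproducible peaks 4 (parental wild-type), 11 (resistant wild-type) and 4 (resistant METTL7A). No paired analysis was possible because each list merges both replicates and its columns carry no replicate number to pair them by. This concerns replicates: lists of the same cells can be set side by side, and some of those differences are given above without a test. Unknown depth, unequal list lengths and copy number limit every comparison between lists.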
